A study of Caenorhabditis elegans with 53 samples.

Results

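The vitellogenin genes vit-1, vit-2, vit-3, vit-4, vit-5 and vit-6 of the nematode Caenorhabditis elegans encode its yolk proteins, and their counts were followed in nuclei through development. The 6 genes were taken by their gene identifiers from a table of raw counts that holds 41897 genes, and all 6 passed the filter on low counts. All 38 libraries used here came from the control strain UPN INTACT (otIs790), in which a transgene marks neuronal nuclei so that they can be pulled down from a nuclear preparation (the INTACT method). Neuronal pull-downs, called neuronal IP, comprised 4 libraries of the first larval stage L1 (8 ± 1 h after plating), 5 of L2 (21 ± 1 h), 6 of L4 (40 ± 2 h) and 7 of adults (53 ± 2 h). The inputs, RNA of the preparation before the pull-down, comprised 4, 3, 4 and 5 libraries of these stages in the same order. Each library came from a large pool of synchronised animals. Whether replicates were grown as separate cultures is not stated, so every p-value refers to the spread among the libraries at hand, which may be technical only. The heterochronic mutants of the series (lin-4 null, and gain-of-function alleles of lin-14 and lin-28) were not analysed here, because the tables used that hold them list 0 of the 6 genes. In these bulk libraries, fewer cells of a type and less RNA per cell cannot be told apart.

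Vitellogenins are large lipid-binding proteins made in the intestine of adult hermaphrodites, secreted into the body cavity and taken up by growing oocytes through a receptor of the LDL receptor family. They feed the embryo, and their transcription begins around the last larval moult and ranks among the strongest of the adult worm. The genes vit-1 to vit-5 encode closely related large yolk proteins, whereas vit-6 encodes a more distant precursor that is cut into a pair of smaller yolk proteins. Neurons are not a known site of yolk protein synthesis, so the level of these genes in neuronal IP was read beside that in input throughout.

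The authors' gene table places 5 of the genes on chromosome X and vit-6 on chromosome IV. In its coordinates, whose genome build is not given in the sources used here, vit-1 (WBGene00006925) spans X:7727850-7732892 on the plus strand with 5 exons, and vit-2 (WBGene00006926) spans X:5101012-5106047 on the plus strand with 5 exons. On the minus strand, vit-3 (WBGene00006927) spans X:3567445-3572527 and vit-4 (WBGene00006928) spans X:3558880-3563952, with 6 exons each and 3492 bases between them. The plus strand carries vit-5 (WBGene00006929) at X:3403467-3408541 with 6 exons and vit-6 (WBGene00006930) at IV:8261159-8266353 with 5 exons. Coding lengths are alike, between 4812 bases for vit-3, vit-4 and vit-5 and 4956 bases for vit-6. How reads that map to several of these related genes were counted is not given, so values of single members are uncertain where reads are shared. The genes vit-3 and vit-4 overlap the non-coding genes T27A10.8 and F59D8.3, and their reads cannot be told apart without strand.

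Total counts per library ranged from 8582120 to 53251753. The pull-down label held at each stage: of 15 pan-neuronal genes (synaptic and neuropeptide-processing genes), all 15 were called higher in neuronal IP than in input at L1 and L2, and 14 were at L4 and in the adult stage. A call here is an adjusted p under 0.05 in edgeR's quasi-likelihood test on raw counts, with Benjamini-Hochberg adjustment over the 21040 genes tested. Libraries stood apart in both later stages. In L4 neuronal IP replicates 5 and 6, the 15 germline and oocyte markers summed to 386.2 and 497.3 CPM (counts scaled to a common library size by TMM), against 927.9 to 2904 in replicates 1 to 4. Adult replicates 1 to 3 and 4 to 7 differed as well: the 20 intestine markers summed to 1191 to 2759 CPM in the first of these sets and 4241 to 7535 in the other set in neuronal IP, and to 3853 to 6578 and 8013 to 9703 CPM in input. Results on L4 and adult libraries are therefore also given without those libraries or within each set where the value or the call moved.

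In adults the 6 genes took a share of the transcriptome that few genes reach. They held 6.98% ± 2.23 of all counts in neuronal IP (SD, n = 7) and 15.6% ± 4.92 in input (n = 5). The lowest adult neuronal IP library held 5.35%, the median library 6.03% and the highest 11.5%, and the 5 inputs held 22.2%, 18.9%, 15%, 11.8% and 10.3% in replicates 1 to 5. By count, vit-6 ranked 1st and vit-2 ranked 2nd among all genes in each of the 12 adult libraries, the pull-downs of neuronal nuclei included. The genes vit-4 and vit-5 ranked 3 to 5 and 4 to 10 in neuronal IP and 3 and 4 in input. The least abundant members, vit-1 and vit-3, ranked 8 to 35 and 10 to 37 in neuronal IP, against 5 to 8 and 6 to 11 in input.

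Per kilobase of coding length, the order of the members in adults was the same in both fractions. In neuronal IP, vit-6 had a mean of 4679 RPKM (CPM per kilobase of coding length), vit-2 4217, vit-4 3173, vit-5 1752, vit-1 1195 and vit-3 902. In input these means were 12220 RPKM for vit-6, 10570 for vit-2, 8618 for vit-4, 4804 for vit-5, 3026 for vit-1 and 2425 for vit-3. Each gene exceeded the next in this order within 7 of 7 neuronal IP and 5 of 5 input libraries, apart from vit-1 over vit-3 in neuronal IP, which held in 6 of 7. The libraries spread so widely that the ranges of neighbours overlapped in every case, so the order is one within libraries. At L4 the order was vit-6, vit-2, vit-4, vit-1, vit-3 and vit-5 in both fractions, with vit-5 last at 10.2 RPKM in neuronal IP and 20.6 RPKM in input.

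**Figure D1:**
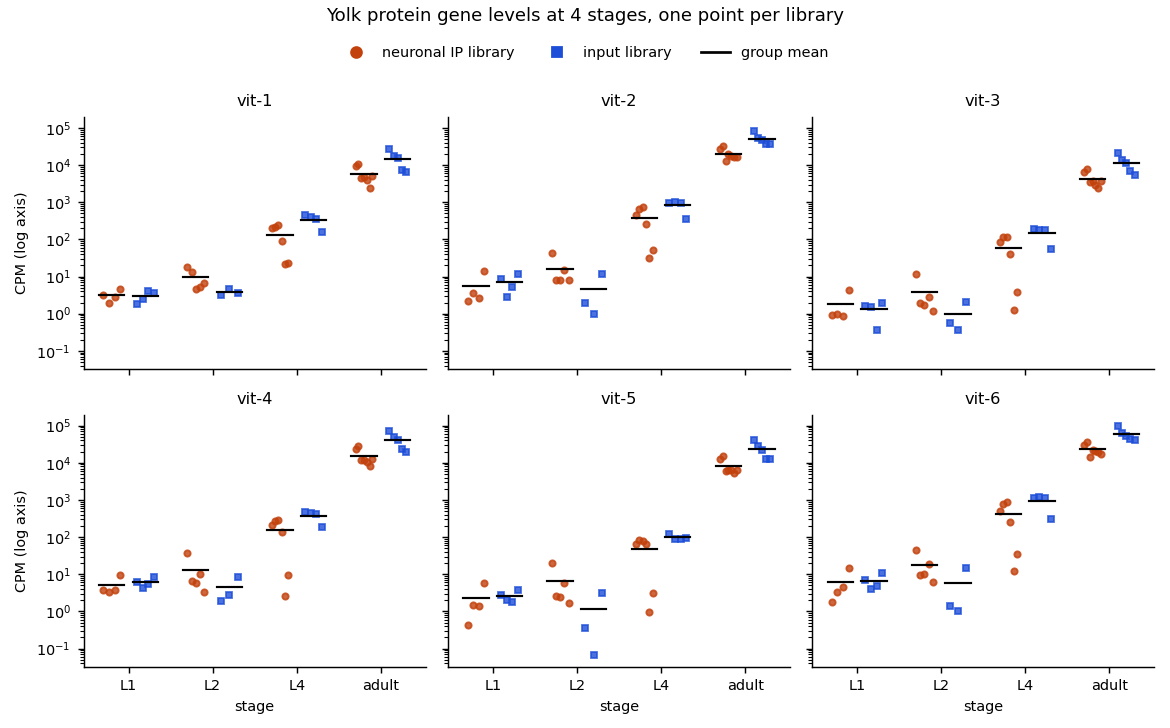
CPM (TMM-scaled) of each yolk protein gene (log axis) by stage, with neuronal IP libraries as circles, input libraries as squares and group means as bars. Every member sits between 0.0666 and 46.0 CPM at L1 and L2 and between 2355 and 97390 CPM in adults, and L4 neuronal IP replicates 5 and 6 lie far below the other L4 libraries.

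Adult neuronal IP held less of each yolk protein gene than adult input. For vit-6, neuronal IP libraries had 14610 CPM at the lowest, 21210 at the median and 36580 at the highest, against 97390, 65170, 54070, 44240 and 41860 CPM in inputs 1 to 5. For vit-2, neuronal IP libraries had 12740 CPM at the lowest, 17720 at the median and 32950 at the highest, against 82170, 54000, 46260, 37560 and 35890 CPM in the inputs. Every neuronal IP library lay below every input for both genes. The share of all genes tested that separated in this way is not given here. For vit-1 the lowest, median and highest neuronal IP libraries had 2365, 4811 and 10540 CPM, against 26360, 17090, 15830, 7576 and 6533 CPM in the inputs, and the groups overlapped, as they did for vit-3, vit-4 and vit-5.

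The log2 fold changes of neuronal IP against input in adults were nearly equal among members, between -1.46 for vit-5 and -1.33 for vit-2. In the edgeR fit of all 38 libraries, vit-1 was called lower (log2 fold change -1.34, SE 0.47, Benjamini-Hochberg adjusted p = 0.0233), and the other 5 had adjusted p between 0.0794 and 0.108. That is 1 of 6 called, where 11.9% of all genes tested were called lower, and the median of the 6 was -1.41, against 0.06 over all genes tested. The 6 unadjusted p-values were all under 0.05. Same-numbered neuronal IP and input libraries deviated together (r of 0.50 to 0.77), but other numbers came close (highest r of 0.41 to 0.65 per replicate). For replicate 2 another number was higher than its own (0.55 against 0.52). With the replicate number as a block edgeR called all 6 genes lower, where 23.3% of genes tested were called lower in that fit. The log2 fold changes were then between -1.17 for vit-6 and -0.97 for vit-1, with edgeR adjusted p between 0.000206 and 0.000965. Within the 5 pairs, neuronal IP was below its own input for each gene in 5 of 5, with log2 ratios of -1.89 to -0.66. RLE scaling, DESeq2 and a fit of the adult groups alone also called 6, but the shares of all genes called lower in these fits are not given here. With RLE the median over all genes tested was -0.17. Without input replicate 1 the unblocked call of vit-1 was lost, and without neuronal IP replicate 5, 6 or 7 or input replicate 5 the unblocked fit called up to 6. Within replicates 1 to 3 and 4 to 7 alone the unblocked log2 fold changes were -1.96 to -1.83 with 1 call and -1.33 to -1.06 with 0 calls.

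The medians of the marker lists of other tissues differed in direction in adults. Of 20 intestine markers, 4 were called lower and 0 higher in adult neuronal IP than in input, with a median log2 fold change of -0.70. Those called were ges-1, a gut esterase (-0.96), pho-1, an intestinal acid phosphatase (-1.04), asp-1, an aspartic protease (-0.82), and mtl-1, a metallothionein (-2.92). Of 15 germline and oocyte markers, 1 was called lower, egg-2 of the oocyte surface (-0.97), with a median of -0.77; that share of called genes is below the share of all genes tested. Sperm markers had a median of -0.32, with 1 of 12 called higher. The lists of 12 hypodermis and cuticle markers (median 0.62) and 11 body wall muscle markers (median 0.23) had positive medians. Of these, 0 of 12 and 0 of 11 were called in either direction, and 4 and 3 had values below 0. The summed level of the intestine list ranged from 1191 to 7535 CPM in neuronal IP and from 3853 to 9703 CPM in input, and 1 of its 20 genes was under 1 CPM in every library of each group. The part of intestine and germline in the yolk protein counts of neuronal IP was not tested.

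**Figure D2:**
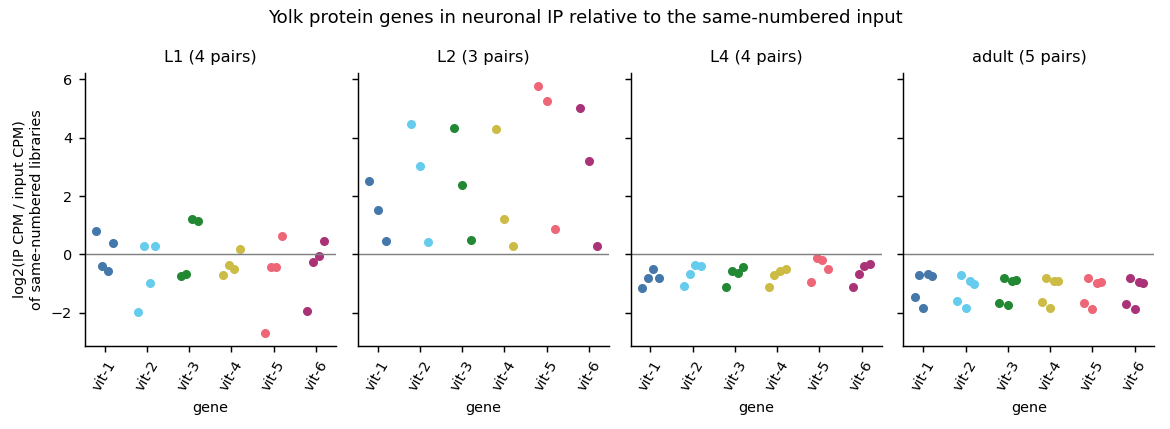
Log2 ratio of CPM in neuronal IP to CPM in the same-numbered input for each yolk protein gene, one point per pair of libraries, in 4 panels by stage; the line at 0 marks equal levels. All points of adults and L4 lie below 0, down to -1.89 for vit-6 in adults, all points of L2 lie above 0, up to 5.79 for vit-5, and those of L1 lie on both sides.

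Between L4 and the adult stage, all 6 genes rose steeply in neuronal IP and in input. Summed over the 6 genes, adult neuronal IP had 77440 ± 30640 CPM (SD, n = 7) and L4 neuronal IP 1166 ± 976 CPM (n = 6), while adult input had 202600 ± 88480 CPM (n = 5) and L4 input 2736 ± 1057 CPM (n = 4). For vit-5, adult neuronal IP libraries had 5415 CPM at the lowest, 6376 at the median and 15470 at the highest, against 0.955, 64.7 and 81.7 CPM at L4. In input vit-5 had 40580, 27450, 22260, 12730 and 12560 CPM in adult replicates 1 to 5, against 123.2, 89.2, 89.3 and 94 CPM in L4 replicates 1 to 4. The lowest adult library exceeded the highest L4 library for every member in both fractions. How many of all genes tested did so is not given here.

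All 6 genes were called higher in adults than at L4 in neuronal IP, where 18.6% of genes tested were called higher, and all 6 in input, where 21.3% were. The log2 fold change in neuronal IP was largest for vit-5 (7.43, SE 0.93, edgeR adjusted p = 1.43e-07), followed by vit-4 (6.65, SE 0.82), vit-3 (6.18, SE 0.83), vit-6 (5.84, SE 0.83), vit-2 (5.81, SE 0.73) and vit-1 (5.43, SE 0.56). In input the order of the log2 fold changes was the same, at 7.87 for vit-5 (SE 1.16, edgeR adjusted p = 2.40e-06), 6.77 for vit-4, 6.30 for vit-3, 6.0 for vit-6, 5.95 for vit-2 and 5.44 for vit-1. Over all genes tested the median log2 fold change was -0.21 in neuronal IP and 0.03 in input. Without L4 neuronal IP replicates 5 and 6 the 6 log2 fold changes in neuronal IP were 4.68 to 6.62, with 6 of 6 still called. With adult libraries 1 to 3 alone they were 5.62 to 7.55 in neuronal IP and 6.06 to 8.41 in input, and with 4 to 7 alone 4.82 to 6.87 and 4.38 to 6.96, with 6 of 6 called each time. Over the same interval the intestine markers did not rise as a list: 1 was called higher and 5 lower of 20 in neuronal IP (median -0.38), and 3 higher and 7 lower in input (median -0.79). Germline and oocyte markers did, with 14 of 15 called higher in neuronal IP (median 3.38) and 13 of 15 in input (median 2.46). The share of all genes called lower between L4 and the adult stage is not given here, so counts of genes called lower have no such background.

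The difference between the fractions in this change was tested as an interaction. In the edgeR fit of all libraries the adult against L4 change in neuronal IP minus that in input was between -0.44 and -0.01 for the 6 genes, 0 were called at adjusted p of 0.905 to 1.00 (1.12% of genes tested were called in either direction), 0 had an unadjusted p under 0.05, and DESeq2 called 0 as well. With each pair of neuronal IP and input as a block, 4 of the 6 differences were called lower, where 13.5% of genes tested were in that fit. These were vit-5 (-1.28, adjusted p = 0.0135), vit-6 (-1.10, 0.0315), vit-2 (-1.06, 0.0357) and vit-3 (-0.96, 0.0412). In that fit L4 neuronal IP replicates 5 and 6 and adult neuronal IP replicates 6 and 7, which have no input, carry no weight on the difference. Leaving out L4 neuronal IP replicates 5 and 6 from the unblocked fit gave differences of -1.37 to -0.91 with 0 calls.

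The rise began between L2 and L4. In input the 6 genes had log2 fold changes of 6.43 to 7.45 at L4 against L2 and 6 of 6 were called higher, where 23.7% of genes tested were. The groups did not overlap for any of the 6, but the share of all genes without overlap is not given here. For vit-2, L4 inputs 1 to 4 had 975.7, 1009, 971.8 and 348.1 CPM, against 1.93, 0.966 and 11.4 CPM in L2 inputs 1, 2 and 4. In neuronal IP the log2 fold changes were 2.93 for vit-5 to 4.50 for vit-6, and 6 of 6 were called higher, where 16.3% of genes tested were. The L4 neuronal IP libraries fell apart, however: vit-2 had 459.5, 637.7, 749.2 and 262.9 CPM in replicates 1 to 4 and 30.7 and 51.3 CPM in replicates 5 and 6, against 42.7, 7.82, 8.24, 15.3 and 8.07 CPM in L2 replicates 1 to 5. The groups overlapped for 5 of the 6 genes through replicates 5 and 6. With L4 replicates 1 to 4 alone the log2 fold changes were 3.83 to 5.36 and with L4 replicates 4 to 6 alone they were 1.89 to 2.83, with 6 and 3 of the genes called. Without L2 neuronal IP replicate 1 they were 4.07 to 5.27, and without L2 input replicate 4 the values in input were 6.15 to 9.27, with 6 of 6 called in both.

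Summed over the 6 genes, L4 neuronal IP replicates 5 and 6 had 69.3 and 125.2 CPM, against 839.6 to 2347 in replicates 1 to 4. The same 2 libraries were also low in intestine markers (3016 and 3572 CPM, against 5098 to 6742) and high in pan-neuronal genes (10320 and 9901 CPM, against 3861 to 7625). Replicate 4 was low in both fractions, with 839.6 CPM of yolk protein genes in neuronal IP and 1153 CPM in input, where the other inputs had 3173 to 3310 CPM. The part of these differences between libraries in the stage changes was not tested beyond the values without them.

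**Figure D3:**
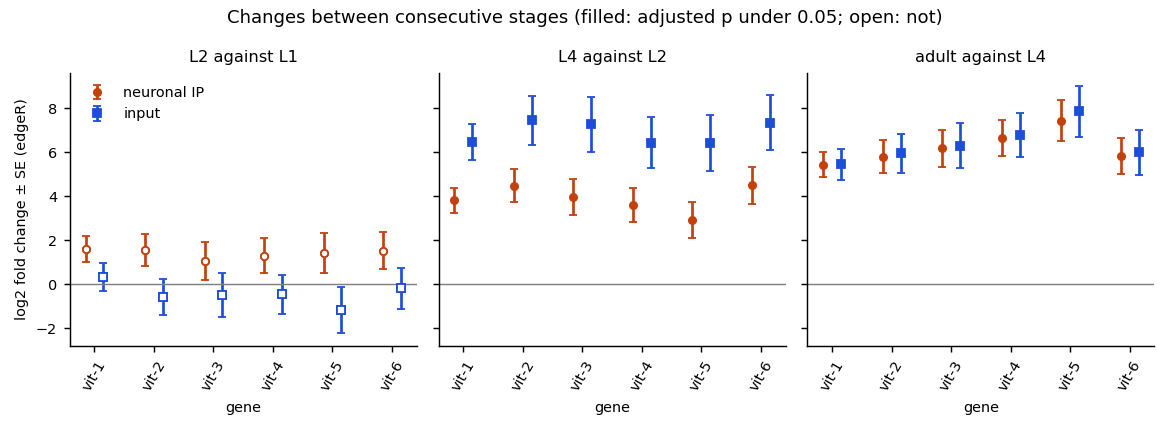
Log2 fold change (edgeR, with SE as bars) of each yolk protein gene between consecutive stages in neuronal IP (circles) and input (squares); filled symbols have an adjusted p under 0.05 and open symbols do not. For L2 against L1 the 6 genes lie between 1.08 and 1.58 in neuronal IP and between -1.18 and 0.33 in input, all open, and they lie between 2.93 and 4.50 in neuronal IP and 6.43 and 7.45 in input for L4 against L2, and between 5.43 and 7.87 for adult against L4.

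The smaller rise of neuronal IP between L2 and L4 did not pass the test of the difference in the unblocked edgeR fit. The L4 against L2 change in neuronal IP minus that in input was between -3.50 for vit-5 and -2.65 for vit-1, with adjusted p of 0.0534 to 0.153 and 0 of 6 called, where 5.08% of genes tested were called in either direction. All 6 unadjusted p-values were under 0.05, and DESeq2 called 1, vit-1. With each pair as a block 5 of the 6 were called lower, where 9.29% of genes tested were in that fit, and vit-4 had -2.39 at adjusted p = 0.0668. Without L4 neuronal IP replicates 5 and 6 the differences were -2.40 to -1.60 with 0 calls at adjusted p of 0.174 to 0.278. Without L2 neuronal IP replicate 1 they were -2.20 to -1.60 with 0 calls, and without L2 input replicate 4 they were -5.31 to -2.06 with 3 calls. Without L4 neuronal IP replicate 2 or 3 or L4 input replicate 4, the unblocked fit called 1, 1 and 2 of the 6. The L2 inputs held 260, 295 and 911 counts of yolk protein genes in all.

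Before L4 the genes were near the low end of detection. The 6 genes together had 118 to 914 counts in L1 neuronal IP and 616 to 765 in L1 input, and 538 to 3020 counts in L2 neuronal IP against 260 to 911 in L2 input. At L1 the sum was 24.1 ± 19.5 CPM in neuronal IP and 26.8 ± 10.0 CPM in input (n = 4 each). At L2 it was 66.8 ± 61.5 CPM in neuronal IP (n = 5) and 21.0 ± 19.9 CPM in input (n = 3). Neuronal IP libraries of L2 had 174.8, 41.6, 32.8, 57.8 and 27.1 CPM, against 9.29, 9.83 and 43.9 CPM in inputs 1, 2 and 4. At L1 replicate 4 was the highest library in neuronal IP (53.3 CPM, against 12.5 to 16) and in input (40.2 CPM, against 17.1 to 28.1), whereas at L2 replicate 1 was the highest in neuronal IP and the lowest in input.

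No member was called between L2 and L1 in either fraction by edgeR or DESeq2 with all 38 libraries fitted. In the edgeR fit 3.01% of genes tested were called in either direction in neuronal IP and 1.26% in input. Log2 fold changes were 1.08 to 1.58 in neuronal IP, with 2 of 6 at an unadjusted p under 0.05, and -1.18 to 0.33 in input, with 0 of 6. Without L2 neuronal IP replicate 1 the values in neuronal IP were 0.19 to 1.37, and without L1 neuronal IP replicate 4 they were 1.84 to 2.61. Without L2 input replicate 4 the values in input were -3.39 to 0.56. None of these fits called a member, whereas an edgeR fit of only the groups compared called 1 higher in neuronal IP. At L2 the 6 genes had higher values in neuronal IP than in input, with log2 fold changes of 1.32 for vit-1 to 2.48 for vit-5. None was called in the unblocked edgeR fit (adjusted p of 0.0575 to 0.165, 3 at an unadjusted p under 0.05), where 42.2% of genes tested were called in either direction, and DESeq2 called 1. Single libraries decided these values: without L2 neuronal IP replicate 1 the log2 fold changes were 0.13 to 1.01 with 0 calls, and without L2 input replicate 1 or 2 they were 0.63 to 1.52 and 0.62 to 1.37 with 0 calls. Without L2 input replicate 4 they were 0.67 to 4.23 with 3 calls, and without neuronal IP replicate 2 or 5 there was 1 call. Neuronal IP was above its own input in 3 of 3 pairs for each gene, and with the block 4 were called higher, where 32.4% of genes tested were in that fit. These were vit-1 (1.17, adjusted p = 0.00824), vit-5 (3.23, 0.0124), vit-3 (2.02, 0.0148) and vit-2 (2.25, 0.0438). For vit-5 the L2 inputs held 10, 2 and 65 counts, so its ratio is the least certain.

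At L1 the log2 fold changes of neuronal IP against input were between -0.33 and 0.43, and 0 of 6 were called by edgeR (0 at an unadjusted p under 0.05) or by DESeq2, where 51.5% of genes tested were called in either direction. Without L1 neuronal IP replicate 4 they were -1.80 to -0.65 with 0 calls. With the block 2 were called lower, where 38.7% of genes tested were in that fit, namely vit-2 (-0.89, adjusted p = 0.0375) and vit-4 (-0.69, adjusted p = 0.0236). The intestine markers stood lower at both early stages: 18 of 20 were called lower in neuronal IP at L1 (median -2.22) and 16 of 20 at L2 (median -1.61), while the medians of the yolk protein genes were -0.11 and 1.71. Over all genes tested the medians were 0.39 at L1 and 0.46 at L2.

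Set against intestine markers within a library, the yolk protein genes were relatively higher in neuronal IP than in input at L1. The log2 ratio of summed yolk protein gene CPM to summed intestine marker CPM was -7.01, -7.15, -7.16 and -5.09 in L1 neuronal IP, against -8.63, -9.02, -8.86 and -7.83 in L1 input, with no overlap. At L2 it ranged from -7.44 to -3.67 in neuronal IP and was -10.1, -10.1 and -7.35 in input, with overlap. At L4 it was -1.73, -1.65, -1.52, -2.98, -5.44 and -4.83 in neuronal IP replicates 1 to 6, against -1.62, -1.64, -1.64 and -3.28 in input. The difference between same-numbered L4 libraries was between -0.11 and 0.30, and between same-numbered adult libraries between -0.19 and -0.01. In adults the ratio was 5.50, 5.58, 5.47, 4.02, 3.64, 2.87 and 3.84 in neuronal IP, against 5.69, 5.76, 5.64, 4.04 and 3.65 in input. Adult replicates 1 to 3 were higher than replicates 4 and above in both fractions.

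**Figure D4:**
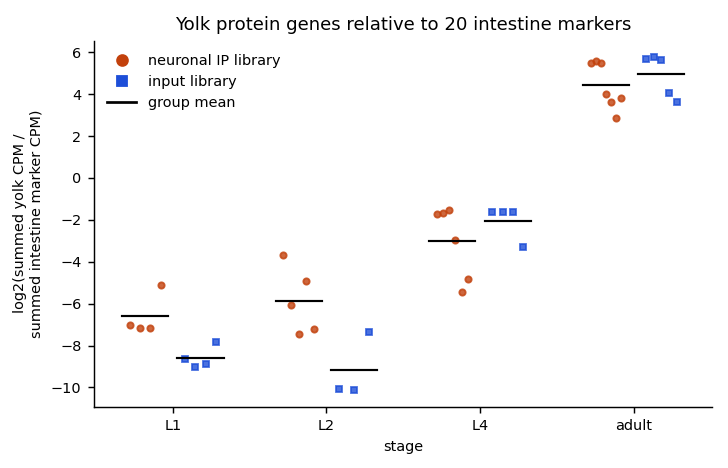
Log2 ratio of the summed CPM of the 6 yolk protein genes to that of 20 intestine markers, one point per library, by stage and fraction, with group means as bars. The ratio lies between -10.1 and -3.67 at L1 and L2 and between 2.87 and 5.76 in adults, and neuronal IP lies above input at L1 and near its same-numbered input at L4 and in adults.

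At L4 neuronal IP against input gave log2 fold changes of -1.33 for vit-1 to -1.02 for vit-5. These were close to those of adults only in this unblocked fit of all libraries. In the unblocked edgeR fit vit-1 was called lower (-1.33, SE 0.52, adjusted p = 0.0372) and the others had adjusted p of 0.143 to 0.322, which is 1 of 6, where 12.8% of genes tested were called lower. The call of vit-1 was lost without input replicate 1, and without neuronal IP replicates 5 and 6 the 6 values were -0.88 to -0.52 with 0 calls. With the block, 5 of 6 were called lower, where 19.3% of genes tested were in that fit, from -0.83 for vit-1 to -0.64 for vit-2 and vit-6, and vit-5 had -0.46 at adjusted p = 0.0610. In adults the blocked values were lower than these, at -1.17 to -0.97. At L4 neuronal IP was below its own input in 4 of 4 pairs for each gene. At this stage 10 of 20 intestine markers (median -0.94) and 12 of 15 germline and oocyte markers (median -1.61) were called lower in neuronal IP as well, and their part in the yolk protein counts was not tested.

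The members did not rise by equal amounts between L4 and the adult stage, so their make-up changed. Counts of vit-5 were 10.7% ± 1.0 of all yolk protein counts in adult neuronal IP (SD, n = 7) and 3.8% ± 2.2 in L4 neuronal IP (n = 6), and 11.1% ± 1.1 in adult input (n = 5) and 4.3% ± 2.6 in L4 input (n = 4). Counts of vit-4 were 19.2% ± 2.9 in adult neuronal IP and 11% ± 4.5 at L4, and 19.7% ± 3.0 in adult input and 14.3% ± 1.6 at L4. The share of vit-1 was smaller in adults, at 7.3% ± 1.6 in neuronal IP against 15.8% ± 8.1 at L4, and 6.9% ± 1.3 in input against 12.5% ± 1.4 at L4. Early larval shares of vit-5 were 8.4% ± 3.5 in L1 neuronal IP and 9.9% ± 1.5 in L1 input, and 8.2% ± 2.3 in L2 neuronal IP and 3.9% ± 3.2 in L2 input. The mean vit-5 share at L4 was thus below those of L1 and adults, but the difference from L1 was not tested. In neuronal IP the libraries overlapped, with 3.4% to 11.2% at L1, from 4 to 102 counts of vit-5, and 1.4% to 7.8% at L4. In input the shares were 8.4% to 11.9% at L1 and 2.7% to 8.1% at L4.

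The ratio of each member to vit-2 within a library, which needs no scaling between libraries, was tested between adults and L4 with an exact two-sided permutation test and Benjamini-Hochberg adjustment over 10 tests. The log2 ratio of vit-5 to vit-2 was -1.33 ± 0.25 in adult neuronal IP and -3.35 ± 1.04 at L4, a difference of 2.02 with no overlap (exact p = 0.00117, adjusted p = 0.0117). In input it was -1.22 ± 0.29 in adults and -2.95 ± 0.75 at L4, a difference of 1.73 with no overlap (exact p = 0.0159, adjusted p = 0.0326). These are the smallest p-values that 7 against 6 and 5 against 4 libraries can give. The vit-4 ratio was higher in adults by 1.30 in neuronal IP (exact test, adjusted p = 0.0117) and by 0.68 in input (exact test, adjusted p = 0.0454), and that of vit-1 fell by 0.66 in neuronal IP and by 0.64 in input (exact tests, adjusted p = 0.0326 in both). The vit-3 ratio was higher in adults by 0.82 in neuronal IP (exact test, adjusted p = 0.0427), and its difference of 0.29 in input did not pass (adjusted p = 0.212 in the exact test). For vit-6 the differences of 0.42 and 0.11 did not pass (exact test, adjusted p = 0.114 and 0.317).

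These differences in make-up depend on the libraries used. Without L4 neuronal IP replicates 5 and 6, the differences in neuronal IP were 0.30 for vit-3 and -0.45 for vit-1, both no longer called, while those of vit-4 and vit-5 remained called. L4 replicate 4 had a vit-5 share of 7.8% in neuronal IP and 8.1% in input, the highest of the L4 libraries in each fraction. Adult replicates 1 to 3 and 4 to 7 differed as well. Adult minus L4 of vit-1 in neuronal IP was -0.30 with replicates 1 to 3 alone and lost its call, and vit-4 in input was 0.27 with replicates 4 to 7 alone. The count ratio of vit-5 to vit-2 was 0.47 to 0.478 in adult neuronal IP replicates 1 to 3 and 0.323 to 0.393 in 4 to 7. In input it was 0.481 to 0.508 in replicates 1 to 3 and 0.339 and 0.35 in 4 and 5. The vit-5 call was lost with replicates 1 to 3 alone in neuronal IP and with either set in input. Single libraries mattered too: in neuronal IP the call of vit-1 was lost without L4 replicate 1, 5 or 6 or adult replicate 7, and that of vit-3 in 8 of 13 such fits. In input the calls of vit-1 and vit-5 were lost without any 1 of the 4 L4 libraries, where the design allows no smaller p, and that of vit-4 in 8 of 9.

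**Figure D5:**
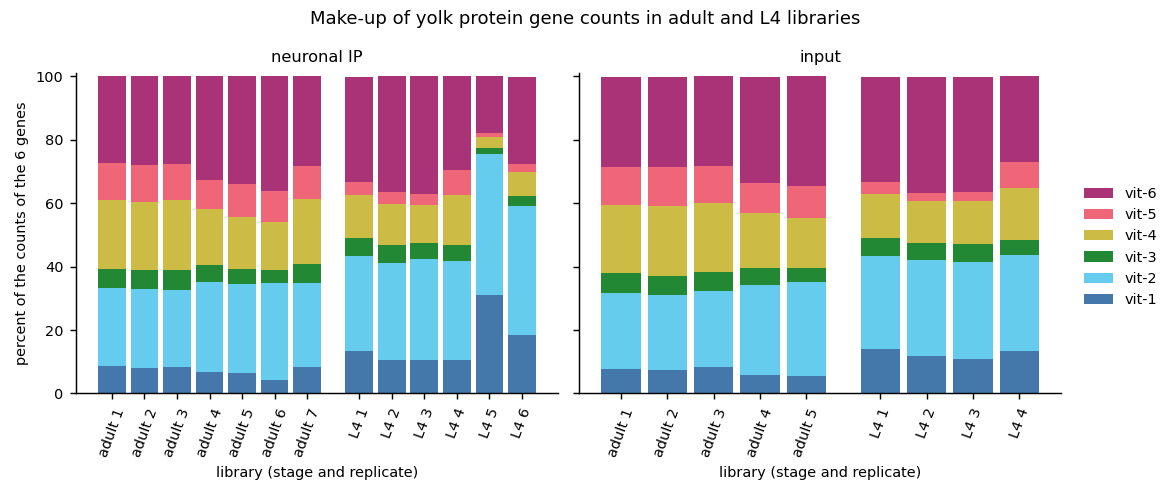
Percent of the summed counts of the 6 yolk protein genes held by each gene, one stacked bar per library, for neuronal IP and input, adult libraries left of L4 libraries. The vit-5 segment is 9.2% to 11.7% in adult neuronal IP and 1.4% to 7.8% at L4, and L4 neuronal IP replicates 5 and 6 stand apart through large vit-1 and vit-2 segments.

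Some ratios between members were stable in adults. The ratio of vit-3 to vit-4 counts, neighbours on the X chromosome, was 0.274 to 0.301 in the 7 adult neuronal IP libraries and 0.272 to 0.303 in the 5 adult inputs, against 0.297 to 0.500 in L4 neuronal IP and 0.282 to 0.425 in L4 input. The ratio of vit-6 to vit-2, on different chromosomes, was 1.06 to 1.2 in adult neuronal IP and 1.17 to 1.21 in adult input. Across the 38 libraries, which share their stages, Pearson's r of log2(CPM + 1) between members was 0.98 to 0.999 and highest between vit-3 and vit-4, as a description of their common stage course.

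The receptor and secretion genes of the yolk pathway did not move as one. The gene rme-2, which encodes the yolk receptor of oocytes, had 725 ± 194 CPM in adult neuronal IP (SD, n = 7) and 62.5 ± 44.1 CPM at L4 (n = 6), and 1080 ± 328 CPM in adult input (n = 5) and 207.5 ± 121.6 CPM at L4 (n = 4). Its log2 fold change of adult against L4 was 3.54 in neuronal IP and 2.38 in input (edgeR adjusted p = 2.17e-07 and 0.000513). In contrast dsc-4, the microsomal triglyceride transfer protein that loads lipid onto secreted lipoproteins, fell by 1.19 in neuronal IP and by 1.59 in input in adults against L4 (edgeR adjusted p = 0.00552 and 0.00192). Of the 12 genes listed for yolk secretion, uptake and turnover, 3 were called higher and 2 lower in neuronal IP and 3 higher and 3 lower in input in adults against L4, with medians of 0.09 and 0.01.

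Transcription factors known to act on yolk protein genes changed far less than their targets. The intestinal GATA factor elt-2 had 8.34 ± 4.75 CPM in adult neuronal IP and 11.3 ± 3.77 at L4, and 16.3 ± 5.86 CPM in adult input and 18.6 ± 1.12 at L4, and neither difference was called. Neither ceh-60 nor unc-62, homeodomain factors of the PBX and MEIS families, nor the zinc-finger gene pqm-1 was called between adults and L4 in either fraction. Between L2 and L4, ceh-60 was called higher, by 2.64 in neuronal IP and 2.77 in input (edgeR adjusted p = 4.50e-05 and 0.000303), at 7.91 ± 3.3 CPM in L4 neuronal IP against 1.25 ± 0.31 at L2. The repressor mab-3, a DM-domain gene that keeps yolk genes off in males, fell by 1.72 in neuronal IP and by 2.98 in input in adults against L4 (edgeR adjusted p = 0.000900 and 1.43e-05). Its levels were low, at 1.35 ± 0.60 CPM in adult neuronal IP and 4.43 ± 2.24 at L4. In input mab-3 had 0.64 ± 0.32 CPM in adults and 2.78 to 10.6 CPM at L4. The heterochronic zinc-finger gene lin-29 also fell in adults against L4, by 1.59 and 1.63 (edgeR adjusted p = 1.08e-05 and 0.000102). Of the 13 listed regulators, 1 was called higher and 2 lower in neuronal IP and 3 higher and 4 lower in input over that interval, with medians of -0.13 and -0.12. In adult neuronal IP against input, elt-2 was called lower (-0.96) and unc-62 higher (0.58), beside dbl-1, a TGF-beta ligand gene, at 3.40.

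The genes whose level followed the summed yolk protein genes most closely were found by Pearson's r of log2(CPM + 1) over the 38 libraries among 9103 genes with a mean of at least 10 CPM. They were the cuticle collagen genes col-19 (0.985), col-20 (0.983) and col-140 (0.981), the oocyte and eggshell genes egg-2 (0.983), cpg-3 (0.980) and perm-2 (0.980), the Pumilio-family gene puf-7 (0.982) and Y4C6A.3 (0.981). The libraries fall into stages, so r describes a shared rise from L2 to L4 and from L4 to the adult stage. For the summed yolk protein genes the log2 ratios of group means over these intervals were 4.13 and 6.05 in neuronal IP. In input they were 7.02 and 6.21. The collagen col-19, a marker of the adult cuticle, averaged 2535 CPM in adult neuronal IP and 3156 CPM in adult input, against 54.4 and 64.8 CPM at L4. In the same groups cpg-3, an eggshell proteoglycan gene, averaged 250.4 and 591.3 CPM in adults, against 13.5 and 27 CPM at L4. Of the remaining hypodermis and cuticle markers in the list of 12, 11 were called lower in adults than at L4 in both fractions.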

How the data were processed

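Raw counts per gene were deposited by the authors; the submitters' processing notes name Subread, featureCounts and DESeq2 without saying more. In the sources used here, versions, genome build, strand and the treatment of multi-mapping reads were not given. Counts of 38 control libraries were fitted with edgeR 4.0.16 in R 4.3.3 (quasi-likelihood, TMM scaling, filterByExpr with a minimum count of 10, 1 mean per group), contrasts were adjusted by Benjamini-Hochberg over 21040 genes, and adjusted p under 0.05 was a call. CPM are counts scaled by the TMM-adjusted library size. The step was tested on simulated data. Ratios used a pseudocount of 0.5 and exact permutation tests (scipy 1.17.1). The authors' gene table gives other values, coordinates and lengths. Deposited size-adjusted scores and normalized signal tables hold 0 of the 6 genes and were not used.

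Same-numbered neuronal IP and input libraries deviated together at each stage. The lowest r of deviations from the means of the paired libraries was 0.50 in adults, 0.16 at L1, 0.14 at L2 and 0.13 at L4. With other numbers the highest r was 0.65 in adults, 0.17 at L1, 0.09 at L2 and 0.23 at L4. Blocked values are given where they change a call. Numbers did not pair libraries of different stages. Alternatives were RLE scaling, DESeq2 1.42.0, no filter, scaling without the 6 genes or on neuron-enriched genes, only the groups compared, sets of libraries, the block and leaving out each library. The members and gene lists were chosen with earlier results of these data known. Named were the 6 genes, 8 pathway genes, the most changed called genes of each list and the 8 genes most like the yolk sum.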

Additional observations from a re-analysis of the deposited data

Results flagged for a closer look

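A gap test for 1 library far from the rest of its group (Dixon's test at the 95% level, in groups of 4 to 10) was applied to 49 sets of values, the 6 genes and their sum in 7 groups, and marked 15 of them. Chance marks about 1 in 20 such sets, and the sets are not independent because the members move together. The 15 marks come from 4 libraries.

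L2 neuronal IP replicate 1 was the highest of its group for vit-2 at 42.7 CPM, vit-3 at 11.6 CPM, vit-4 at 37.1 CPM, vit-5 at 19.7 CPM and the sum at 174.8 CPM. L1 neuronal IP replicate 4 was the highest of its group for vit-2 at 13.8 CPM, vit-3 at 4.31 CPM, vit-4 at 9.56 CPM and the sum at 53.3 CPM. L4 input replicate 4 was the lowest of its group for vit-2 at 348.1 CPM, vit-3 at 53.8 CPM, vit-4 at 191.0 CPM, vit-6 at 312.3 CPM and the sum at 1153 CPM. L4 input replicate 1 was the highest of its group for vit-5 at 123.2 CPM. The labels give no date or batch for these libraries, and what sets them apart was not tested.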

How the results depend on the processing

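Scaling moved the median log2 fold change of all genes by more than 0.1 in several comparisons, for adult neuronal IP against input from 0.06 to -0.17 with RLE and 0.25 without the 6 yolk protein genes; that last shift came from a change of the library TMM takes as its base, and was absent (0.06) with the base kept. The stage changes of adults against L4 kept 6 of 6 calls in both fractions under all alternatives run, and so did L4 against L2 in input. For adult neuronal IP against input, where 1 gene was called, RLE, DESeq2, the replicate block and the compared groups alone called 6, scaling without the 6 genes and adult libraries 4 to 7 alone called 0, and leaving out 1 library gave 0 to 6. For L4 neuronal IP against input, where 1 was called, the block called 5, and 0 were called with scaling without the 6 genes, with L4 libraries 1 to 3, 4 to 6 or 1 to 4 alone (the last chosen after seeing the data), or with only the groups compared; leaving out 1 library gave 0 to 1. With the base library kept, scaling without the 6 genes left the adult count and the L4 count at 1. For L2 neuronal IP against input the block called 4, DESeq2 1 and leave-one-out fits 0 to 3, and at L1 the block called 2. In neuronal IP, L4 against L2 kept 3 calls with L4 libraries 4 to 6 alone, and L2 against L1 gained 1 with only the groups compared. The replicate block, which does not pair libraries between stages, gave 5 calls for L4 against L2 in neuronal IP. For the differences between fractions the block called 4 (adult against L4) and 5 (L4 against L2), DESeq2 called 1 in the L4 against L2 difference, and leave-one-out fits called 0 to 3 there. Apart from the blocked fits whose shares are given above, the shares of all genes called in these alternatives are not given here. A change in the number of members called may therefore go with a change in calls among all genes.

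Signs turned among values that were not called. Scaling without the 6 genes turned signs only with the changed base library, and none with the base kept. For L1 neuronal IP against input, vit-1 was -0.02 with RLE and with DESeq2, -0.51 without a filter, -0.61 with scaling without the 6 genes, -0.28 with the compared groups alone and -0.31 with the block, and vit-3 was -0.13 without a filter, -0.25 with scaling without the 6 genes and -0.10 with the block. Leave-one-out values there ranged from -0.65 to 0.26 for vit-1, -0.99 to 0.67 for vit-3, -1.64 to 0.19 for vit-5 and -1.49 to 0.25 for vit-6. For L2 against L1 in input they ranged from -2.07 to 0.00 for vit-2, -1.30 to 0.05 for vit-3, -1.15 to 0.01 for vit-4 and -2.22 to 0.40 for vit-6. In the adult against L4 difference between fractions, vit-1 was 0.13 without a filter and 0.10 with scaling without the 6 genes. Adult libraries 4 to 7 alone gave 0.44 for vit-1, 0.03 for vit-2, 0.24 for vit-3, 0.27 for vit-4 and 0.04 for vit-6, and L4 libraries 4 to 6 alone gave 0.42, 0.24, 0.36, 0.48, 0.51 and 0.24 for vit-1 to vit-6. Leave-one-out values there ranged from -0.57 to 0.31 for vit-1, -0.70 to 0.19 for vit-2, -0.72 to 0.19 for vit-3, -0.72 to 0.18 for vit-4 and -0.73 to 0.22 for vit-6.

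For the ratios to vit-2 in neuronal IP, adult libraries 1 to 3 alone left -0.30 for vit-1, 1.10 for vit-3, 1.61 for vit-4 and 2.27 for vit-5 uncalled, and libraries 4 to 7 alone 0.61 for vit-3 and 1.07 for vit-4. L4 libraries 1 to 4 alone left -0.45 for vit-1 and 0.30 for vit-3 uncalled, and the sum of the other 5 members as denominator 0.47 for vit-3. In input, adult libraries 4 to 7 alone left -1.10 for vit-1, 0.27 for vit-4 and 1.42 for vit-5 uncalled and turned vit-3 to -0.06, and libraries 1 to 3 alone left -0.34, 0.95 and 1.94 for vit-1, vit-4 and vit-5. L4 libraries 1 to 4 alone left 0.68 for vit-4 uncalled, since the adjustment changed; the sum as denominator left 0.55 for vit-4 and turned vit-6 to -0.17. Leave-one-out ranges were -0.73 to -0.51 for vit-1 and 0.52 to 0.95 for vit-3 in neuronal IP, and -0.74 to -0.51 for vit-1, 0.60 to 0.80 for vit-4 and 1.55 to 2.08 for vit-5 in input. Apart from fewer libraries in the smaller sets, the causes were not tested. No paired analysis was possible for these ratios because numbers do not pair stages. The mutant comparison was not run. Below L4, few counts limit every value.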
